A study of Mus musculus with 6 samples.

Results

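Hyaluronan is a long, unsulfated sugar chain that cells spin out through the plasma membrane into a hydrated coat around themselves. The 9 genes described here make, cut, bind or sense it. They were taken by gene symbol from the deposited count table, where all 9 of 9 were found among 56748 genes, and all 9 passed the low-count filter that left 17717 genes for testing. The hyaluronan synthases Has1, Has2 and Has3 build the chain at the cell surface, and the hyaluronidases Hyal1 and Hyal2 cut it. Versican (Vcan) is a chondroitin sulfate proteoglycan whose head binds hyaluronan, and Cd44 is the main hyaluronan receptor of many cells. Tnfaip6 encodes TSG-6, a secreted protein that moves heavy chains of inter-alpha-inhibitor onto hyaluronan, and Ptx3 encodes the long pentraxin PTX3, a secreted innate immune protein that binds such heavy chains. In connective tissues, fat among them, the coat is known to grow where stromal cells are activated.

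The libraries came from wild-type C57BL/6 mice of both sexes, 12 weeks old, whose gonadal fat was digested to give the stromal vascular fraction, a mixed cell suspension without floating adipocytes. These primary stromal cells were plated straight onto polyacrylamide hydrogels of 12 kPa and kept for 48 h in medium with serum. In 3 libraries the gel surface carried type I collagen alone, applied at 0.05 mg/mL (col1), and in 3 the collagen had been polymerized with 30 nM recombinant aortic carboxypeptidase-like protein (col1-ACLP), a secreted collagen-binding protein. The protein was the mouse sequence with a myc-His tag, made in AD293 cells, so it was added from outside and not expressed by a transgene. The study describes the replicates as biological, while the labels do not say whether they came from separate animals or cultures. The p-values weigh the difference between the groups within these libraries only, and the spread of the libraries may or may not be that between animals.

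Library totals ranged from 33343651 to 47142754 counts. At this depth 3 counts, the floor used for detection, correspond to 0.0624 to 0.0889 CPM (counts scaled to a library size that TMM factors, trimmed means of the log ratios between libraries, adjust), a floor that covers counting error only. The 11 adipose stromal markers, among them Pdgfra, summed to 16800 to 19500 CPM on col1 and 18000 to 26400 CPM on col1-ACLP. That sum was mostly collagen transcripts, Col1a1 (mean 5020 and 8690 CPM) and Col3a1 (6890 and 9070 CPM), and the list did not move one way. Of its 11 genes 1 was raised, Col1a1 at 0.79, and 3 were lowered, the progenitor markers Ly6a at -0.68, Cd34 at -0.65 and Pi16 at -1.16. The CPM of 6 of the 11 lay lower on col1-ACLP without overlap and of 2 higher, with a median log2 fold change of -0.27. Among all tested genes 0.66% were raised, 0.722% lowered and 20.4% without overlap, with a median of 0.01. Markers of endothelial cells (820 to 1060 CPM over all libraries), macrophages (546 to 631 CPM) and mesothelium (320 to 432 CPM) were also present, so the cultures were mixed. The mesothelial, macrophage and endothelial sums overlapped between the groups. Mast cell markers summed to 39.8 to 44.2 CPM on col1 and 28.7 to 36.8 CPM on col1-ACLP, and lymphocyte markers to 1.63 to 2.27 and 0.57 to 0.997 CPM. Ribosomal 18S RNA took 0.251 to 0.326% of counts on col1 and 0.479 to 0.579% on col1-ACLP (exact permutation test, two-sided, n = 3 per group, p = 0.1, the smallest this design allows). The part of these shifts in the results below was not tested, and in bulk RNA fewer cells of a type cannot be told apart from less RNA per cell.

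Across the 9 genes, collagen-bound ACLP went with more Has2 and less Ptx3. Has2 was raised 2.25-fold and Ptx3 lowered 1.5-fold, and the remaining 7 did not pass both thresholds, which were a log2 fold change beyond 0.58 in either direction and an adjusted p below 0.05 (edgeR quasi-likelihood test, Benjamini-Hochberg adjustment over all tested genes). Among all tested genes 0.66% were raised, 0.722% lowered and 1.38% called in either direction. The CPM of the groups did not overlap for 4 of the 9 genes, namely Has2, Vcan, Tnfaip6 and Ptx3, against 20.4% of all tested genes. An unadjusted p under 0.05 was reached by 5 of the 9, these 4 and Has1, against 14.9% of all tested genes. The median log2 fold change of the 9 genes was 0.33, beside 0.01 for all tested genes. That median is the value of Hyal1, which rests on 30 to 59 counts per library, shares most of its sequence words with other genes and ranged from 0.06 to 0.76 with a library left out.

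**Figure D1:**
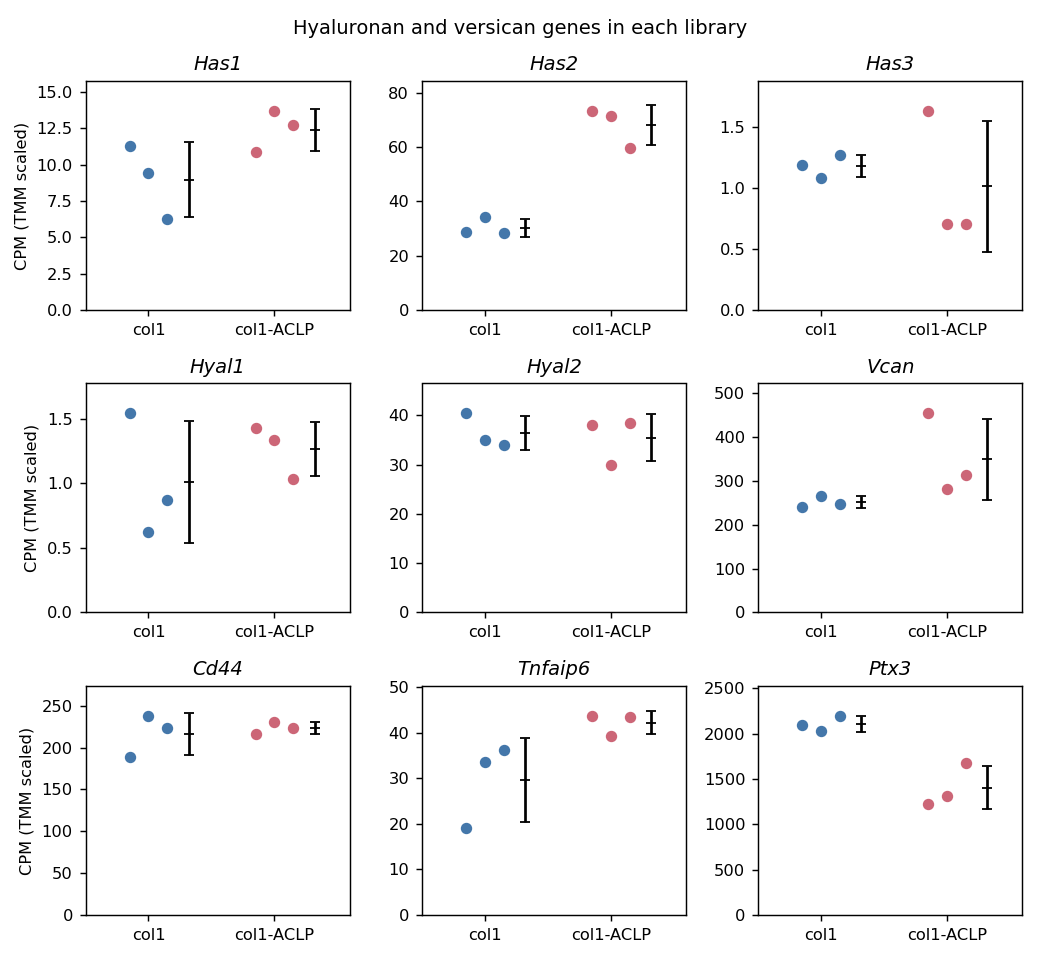
CPM scaled by trimmed mean of M-values in each of the 3 col1 (blue) and 3 col1-ACLP (red) libraries, 1 panel per gene with its own axis from 0; black bars are mean ± SD. All 3 col1-ACLP libraries lie above col1 for Has2, Vcan and Tnfaip6 and below it for Ptx3.

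Has2 encodes the synthase that supplies most hyaluronan in mesenchymal cells. It lies on chromosome 15 at 56529023-56557935 (GRCm39, minus strand, protein-coding, ENSMUSG00000022367). Its level was 28.69, 34.14 and 28.2 CPM on col1 and 73.37, 71.47 and 59.87 CPM on col1-ACLP. Every col1-ACLP library stood far above every col1 library. The means were 30.3 ± 3.3 and 68.2 ± 7.31 CPM (mean ± SD, n = 3 per group). On the log2 scale Has2 differed by 1.17 ± 0.13 (estimate ± SE, 95% interval 0.9 to 1.43, edgeR adjusted p = 6.939e-05). Has2 ranked 14 by p among the 17717 tested genes. The antisense transcript Has2os shares 400 exon bases with Has2 and had 3.46% as many counts, and strand use in counting is not given in the sources used here. Has2os itself was at 0.936 to 2.19 CPM on col1 and 1.13 to 2.47 CPM on col1-ACLP, and these ranges overlapped.

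The other synthases were measured at lower levels. Has1, whose product makes hyaluronan mainly in stimulated cells, measured 11.29, 9.425 and 6.231 CPM on col1, against 10.85, 13.71 and 12.71 CPM on col1-ACLP. The groups overlapped through col1 1, and the log2 fold change of 0.47 ± 0.21 did not pass adjustment (edgeR adjusted p = 0.3, 95% interval 0.03 to 0.91). Has3 was covered by only 26 to 65 counts per library, or 0.7022 to 1.629 CPM, and Chtf8 overlaps it on the other strand with 10.45% as many counts. Its col1-ACLP 1 library held the highest value and the other col1-ACLP libraries the lowest. The log2 fold change of -0.22 had a 95% interval of -1.36 to 0.92, so changes within that interval in either direction are not excluded.

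To compare levels between genes, counts were divided by the gene length in the table and scaled to the same sum in each library (TPM). Has2 stood at 20.05, 24.46 and 19.27 TPM on col1 and 54.44, 46.49 and 40.85 TPM on col1-ACLP. It made up 71.6 to 80.8% of the TPM of the 3 synthases on col1 and 82.9 to 86.7% on col1-ACLP, ranges that did not overlap. The summed synthase level was 28, 31.3 and 23.83 TPM on col1 and 62.79, 55.15 and 49.3 TPM on col1-ACLP. Has1 contributed 16.7 to 26.4% of the sum on col1 and 12 to 16.5% on col1-ACLP, and Has3 at most 2.41% in any library. These shares are descriptions and were given no test. The higher share of Has2 follows largely from its own rise, so it adds no further result.

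**Figure D2:**
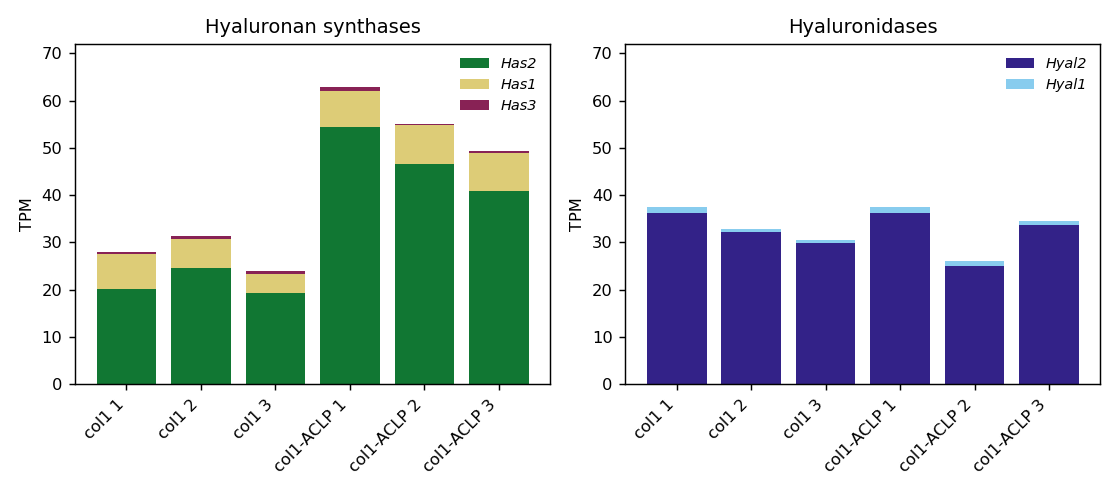
Per-length levels (TPM) of the 3 hyaluronan synthases (left) and the 2 hyaluronidases (right), stacked for each library on axes from 0. The synthase bars are 23.83 to 31.3 TPM on col1 and 49.3 to 62.79 TPM on col1-ACLP, mostly Has2; the hyaluronidase bars, mostly Hyal2, overlap between groups.

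Hyal2, a membrane-anchored hyaluronidase that starts the breakdown of long chains, measured 40.37, 35.02 and 33.99 CPM on col1, against 37.95, 29.88 and 38.42 CPM on col1-ACLP. The groups overlapped, and the log2 fold change was -0.04 ± 0.13 with an interval of -0.32 to 0.24 (edgeR adjusted p = 0.9294), which leaves out a change as large as that of Has2. The antisense transcript Gm9917 overlaps Hyal2 and had 12.31% as many counts. In TPM the ratio of Has2 to Hyal2 within a library was 0.552, 0.758 and 0.645 on col1 and 1.5, 1.86 and 1.21 on col1-ACLP. Hyal2 was thus the higher of the pair in every col1 library and Has2 in every col1-ACLP library. This ratio too follows largely from the rise of Has2 and adds no further result. The lysosomal hyaluronidase Hyal1 had 30 to 59 counts per library (0.6242 to 1.541 CPM) and a log2 fold change of 0.33 with an interval of -0.78 to 1.45. Its value is uncertain besides, because 60.8% of its 31-base words occur in transcripts of other genes, chiefly Naa80, which overlaps it on the same strand and had 1632.23% as many counts.

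Vcan lies on chromosome 13 at 89803431-89890628 (GRCm39, minus strand). It measured 239.4, 265.9 and 247.5 CPM on col1, against 454, 280.6 and 312.5 CPM on col1-ACLP. The col1-ACLP libraries were all higher, but col1-ACLP 1 stood apart and col1-ACLP 2 was close to the highest col1 library. The means were 251 ± 13.6 and 349 ± 92.3 CPM, and the log2 fold change of 0.48 ± 0.14 (95% interval 0.18 to 0.77) passed neither threshold in edgeR (adjusted p = 0.09803). Without col1-ACLP 1 the log2 fold change was 0.24 (adjusted p = 0.3504), whereas without col1-ACLP 2 it was 0.61 and past both thresholds (adjusted p = 0.02522). DESeq2 gave an adjusted p of 0.02174 at a log2 fold change of 0.47, under the fold threshold.

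Cd44 carries signals from hyaluronan into the cell and anchors the coat. On the per-length scale it was the most abundant of the 9 genes after Ptx3 on col1, at 82.48 to 106.5 TPM. Its CPM were 188.8, 237.9 and 223.1 on col1, against 216.1, 230.9 and 223.6 on col1-ACLP. The col1-ACLP values all fell inside the col1 range, and the log2 fold change was 0.05 ± 0.1 with an interval of -0.18 to 0.27 (edgeR adjusted p = 0.8999). Gene counts do not separate the splice forms of Cd44 or of Vcan.

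Tnfaip6 and Ptx3 encode the secreted proteins that crosslink hyaluronan in inflamed and ovulatory matrix, and both genes are induced by inflammatory cytokines. The sequences before their starts are shown because the col1-ACLP libraries lay above col1 for Tnfaip6, which passed neither threshold, and below it for Ptx3. They are the 250 bases upstream of the RefSeq start on the build GRCm38.p6, 5′ to 3′ on the gene's plus strand. Ptx3 is at chr3:66219637-66219886 and Tnfaip6 at chr2:52037863-52038112. Capitals mark matches, searched on both strands, to the sites of 5 motifs. The AP-1 site was spelled TGANTCA, where N is any base. The site of the C/EBP factors was written as TTGCNNAA. The TATA box was searched as TATAAA, and the NF-kB and CArG sites by their consensus.
Ptx3: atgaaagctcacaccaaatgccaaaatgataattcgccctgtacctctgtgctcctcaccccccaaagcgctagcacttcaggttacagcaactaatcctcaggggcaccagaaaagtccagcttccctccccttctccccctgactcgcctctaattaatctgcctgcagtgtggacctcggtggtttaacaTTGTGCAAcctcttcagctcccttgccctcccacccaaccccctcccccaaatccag
Tnfaip6: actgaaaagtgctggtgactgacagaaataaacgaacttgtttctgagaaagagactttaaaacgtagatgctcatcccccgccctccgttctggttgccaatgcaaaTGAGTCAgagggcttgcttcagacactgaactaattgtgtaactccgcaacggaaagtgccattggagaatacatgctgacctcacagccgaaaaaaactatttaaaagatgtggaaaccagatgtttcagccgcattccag
The Ptx3 window held 1 match, to C/EBP, at -57 to -50 from the start, and 9.56% of the 32851 windows of this length in the table hold one. The Tnfaip6 window also held 1 match, to AP-1, at -142 to -136, where 6.75% of windows hold one. The 2 windows shared no match, which is the usual case where each motif is found in at most 12.4% of windows. A link between the matches and the directions of the 2 genes was not tested. Entries were found for 7 of the 9 genes, the others being Has2 and Has3. Beyond these 2 matches, the 7 windows held 1 NF-kB match, in Hyal2 (3.9% of windows hold one), with TATA matches in 12.4% and matches to the CArG box, the site of serum response factor, in 1.47% of all windows. The matches are descriptions of letters and not measured binding sites, and 0 of the 7 windows held more than 1 of them.

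Ptx3 was by far the most abundant of the 9 genes and ranked 55 of all genes by mean TPM. It lies on chromosome 3 at 66127331-66133226 (GRCm39, plus strand) and took 0.207 to 0.22% of all counts on col1 and 0.123 to 0.165% on col1-ACLP. Its level was 2092, 2027 and 2198 CPM on col1 and 1229, 1310 and 1673 CPM on col1-ACLP. The 3 col1 libraries lay close together and all col1-ACLP libraries lay below them, col1-ACLP 3 least so. The means were 2110 ± 86 and 1400 ± 236 CPM, and the log2 fold change of -0.58 ± 0.11 (95% interval -0.82 to -0.35) was called lowered by edgeR (adjusted p = 0.009538). The call sat on the fold threshold, at -0.585 before rounding to 2 decimals, and it was lost without col1-ACLP 1 (-0.50), without col1-ACLP 2 (-0.54) and without col1 3 (-0.56, adjusted p = 0.05021). In the first 2 of these the adjusted p stayed under 0.05 (0.02107 and 0.03051).

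The mesothelial sum was 323 to 432 CPM on col1 and 320 to 362 CPM on col1-ACLP. Of its 11 genes 1 was lowered, Upk3b at -0.93 ± 0.22 (mean 6.98 and 3.67 CPM). The groups did not overlap for 4, all lower on col1-ACLP. Among all tested genes 0.722% were lowered and 20.4% did not overlap. Wt1 at 0.24 ± 0.12, Lrrn4 at 0.1 ± 0.21 and Upk1b at 0.05 ± 0.22 lay above 0, and all the other mesothelial markers below it. The median log2 fold change of the mesothelial list was -0.35, beside 0.01 for all tested genes. In that list 5 of the 11 genes had an unadjusted p under 0.05, against 14.9% of all tested genes. The macrophage sum was 546 to 631 and 547 to 624 CPM, and of its 9 tested genes 0 were called by edgeR, DESeq2 or limma-voom. An unadjusted p under 0.05 was reached by 1 of them, against 14.9% of all tested genes. Of the 5 tested mast cell genes edgeR called 3 lowered, Tpsb2, Mcpt4 and Cma1, while DESeq2 and limma-voom called 2 each. The other tested genes of that list were not called. These were Kit at -0.04 ± 0.14 (mean 31 and 30.2 CPM) and Fcer1a at -0.26 ± 1.11 (mean 0.267 and 0.219 CPM). Kit made up most of the mast cell sum in both groups. The part of these cells in the Ptx3 difference was not tested.

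Tnfaip6 measured 19.12, 33.6 and 36.31 CPM on col1, against 43.71, 39.23 and 43.52 CPM on col1-ACLP. The col1-ACLP libraries were tightly grouped above all col1 libraries, of which col1 1 was far below the others. The log2 fold change of 0.50 ± 0.18 (95% interval 0.12 to 0.88) did not pass adjustment (edgeR adjusted p = 0.1838), and it was 0.27 without col1 1. Within a library the TPM of Ptx3 was 69.8, 38.5 and 38.6 times that of Tnfaip6 on col1 and 17.9, 21.3 and 24.5 times on col1-ACLP. These ranges had to lie apart, because every col1-ACLP library was lower for Ptx3 and higher for Tnfaip6, so the ratio adds no further result.

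In order of per-length level on col1, Ptx3 (2294 to 2372 TPM) was followed by Cd44 (82.48 to 106.5), Tnfaip6 (33.1 to 61.46) and Vcan (49 to 55.81), Hyal2 (29.88 to 36.3), Has2 (19.27 to 24.46), Has1 (3.992 to 7.401), Hyal1 (0.5016 to 1.208) and Has3 (0.5147 to 0.5739). Neighbours whose ranges overlapped there were Tnfaip6 with Vcan, Tnfaip6 with Hyal2, and Hyal1 with Has3. On col1-ACLP the order by mean differed for Has2, which at 40.85 to 54.44 TPM lay above Hyal2 (25.01 to 36.23) and reached the lowest Vcan library (53.46). Vcan (53.46 to 98.7) there overlapped both Cd44 (93.93 to 100.2) and Tnfaip6 (63.23 to 80.36), and Hyal1 (0.7897 to 1.189) again overlapped Has3 (0.3033 to 0.8028).

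**Figure D3:**
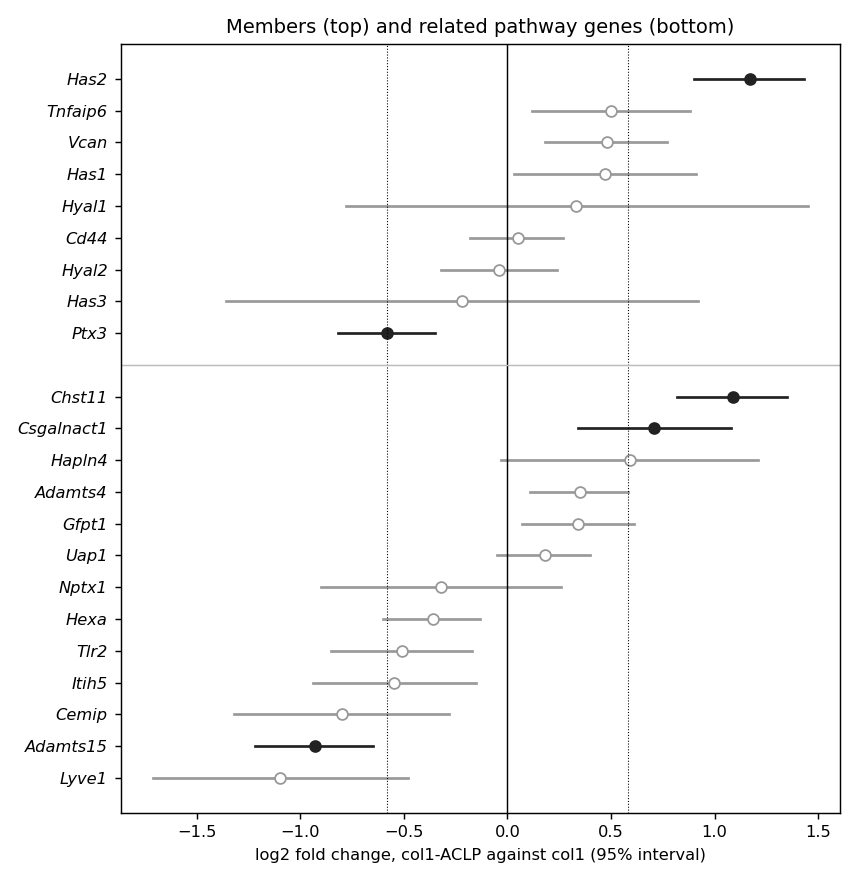
Log2 fold change of col1-ACLP against col1 with its 95% interval from edgeR for the 9 genes (top) and related pathway genes (bottom); filled points passed both thresholds and dotted lines mark a log2 fold change of ±0.58. Has2, Chst11 and Csgalnact1 are filled on the right, and Ptx3 and Adamts15 on the left.

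The rest of the pathway was read from 7 lists with 79 genes, of which 63 were tested, 2 raised, 1 lowered and 60 neither. Among all tested genes 0.66% were raised and 0.722% lowered. An unadjusted p under 0.05 was reached by 15 of the 63, against 14.9% of all tested genes, and the counts for single lists below are to be read beside that share. The median log2 fold change of the 63 was 0.06, beside 0.01 for all tested genes. The raised genes both build the chondroitin sulfate chains that versican and other proteoglycans carry, a list of 22 tested genes with a median of 0.07. Chst11, a chondroitin 4-O-sulfotransferase, measured 60.98, 55.76 and 64.55 CPM on col1, against 153.6, 118.9 and 112.5 CPM on col1-ACLP. The groups were well apart, and the log2 fold change was 1.09 ± 0.12 (edgeR adjusted p = 0.0001339). Csgalnact1, which starts and extends the chain, measured 38.06, 56.42 and 70.95 CPM on col1, against 107.9, 79.72 and 83.84 CPM on col1-ACLP. Its log2 fold change of 0.71 ± 0.18 passed narrowly (adjusted p = 0.04462) and was not called in 4 of the 6 fits with a library left out. These were 0.51 without col1 1 (adjusted p = 0.14), 0.72 with col1 2 left out (adjusted p = 0.08866), 0.57 for col1-ACLP 1 (adjusted p = 0.1946) and 0.76 for col1-ACLP 3 (adjusted p = 0.09844).

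The lowered gene was Adamts15, a secreted protease that can cleave versican and aggrecan. It measured 138, 103.7 and 122.8 CPM on col1, against 75.15, 54.23 and 61.39 CPM on col1-ACLP, with no overlap and a log2 fold change of -0.93 ± 0.13 (edgeR adjusted p = 0.001108). The other 5 versican-cleaving proteases did not pass and lay on both sides of 0, from -0.24 for Adamts5 to 0.35 for Adamts4. Adamts4 was at 0.35 ± 0.11 (edgeR adjusted p = 0.1331), with the col1-ACLP libraries all above col1, though its value is uncertain.

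Of the 8 tested genes that supply the UDP-sugar precursors of hyaluronan, 0 were called by edgeR, DESeq2 or limma-voom and 1 had an unadjusted p under 0.05. That gene was Gfpt1, the entry enzyme of the hexosamine pathway, at 0.34 ± 0.13 (edgeR adjusted p = 0.1997). Uap1, which makes UDP-N-acetylglucosamine, followed at 0.18 ± 0.11 (adjusted p = 0.4855). Of 6 tested genes for other steps of hyaluronan breakdown, again 0 were called by the 3 tools and 2 had an unadjusted p under 0.05. These were Cemip, which drives cellular hyaluronan depolymerization, at -0.80 ± 0.25 (edgeR adjusted p = 0.1098), and the lysosomal hexosaminidase subunit Hexa at -0.36 ± 0.11 (adjusted p = 0.112). Cemip measured 12.45, 10.92 and 13.49 CPM on col1, against 7.871, 4.01 and 9.286 CPM on col1-ACLP, without overlap.

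Of 7 other hyaluronan receptors, 0 were called by edgeR or limma-voom, 1 was called lowered by DESeq2 and 3 had an unadjusted p under 0.05. Lyve1, a receptor of lymphatic endothelium and of some tissue macrophages, measured 4.387, 6.075 and 6.371 CPM on col1, against 3.058, 3.149 and 1.656 CPM on col1-ACLP. Its log2 fold change was -1.10 ± 0.29 with an adjusted p of 0.06361 in edgeR and 0.02483 in DESeq2. The Toll-like receptor gene Tlr2 was at -0.51 ± 0.16 (edgeR adjusted p = 0.1232). Of 15 other hyaluronan-binding matrix genes 7 passed the low-count filter, 0 of these were called by the 3 tools and 1 had an unadjusted p under 0.05. That gene was Itih5, of the inter-alpha-inhibitor heavy chain family, at -0.55 ± 0.19 (adjusted p = 0.1593), and the link protein Hapln4 was at 0.59 ± 0.29 (adjusted p = 0.3687).

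The list of pentraxins and complement proteins that bind PTX3 had 7 tested genes, of which 0 were called by the 3 tools and 1 had an unadjusted p under 0.05. The neuronal pentraxin Nptx1 was at -0.32 ± 0.27 (edgeR adjusted p = 0.6567).

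Patterns across the 6 libraries were compared by the mean absolute difference of log2 CPM, each gene centred on its own mean, over 14342 tested protein-coding genes. The genes nearest to Has2 were Postn, which encodes periostin (difference 0.09, log2 fold change 1.29 ± 0.11), the arginase gene Arg1 (0.12, 1.23 ± 0.12) and Srp54a (0.12). Srp54a shares 71.26% of its 31-base words with other genes, chiefly Srp54b, so its value is uncertain. Those nearest to Ptx3 were Cebpd, which encodes a C/EBP transcription factor (0.033, log2 fold change -0.57 ± 0.11; Spidr, on the other strand, had 12.98% as many counts), the complement gene C2 (0.053, -0.49 ± 0.14) and Ogfod3 (0.062, -0.61 ± 0.16). The values of C2 and Ogfod3 are uncertain, since C2 shares 35.3% of its words with other genes and Ogfod3 overlaps Hexdc, which had 44.03% as many counts. Likeness here describes 6 libraries in 2 groups and says nothing of shared control.

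**Figure D4:**
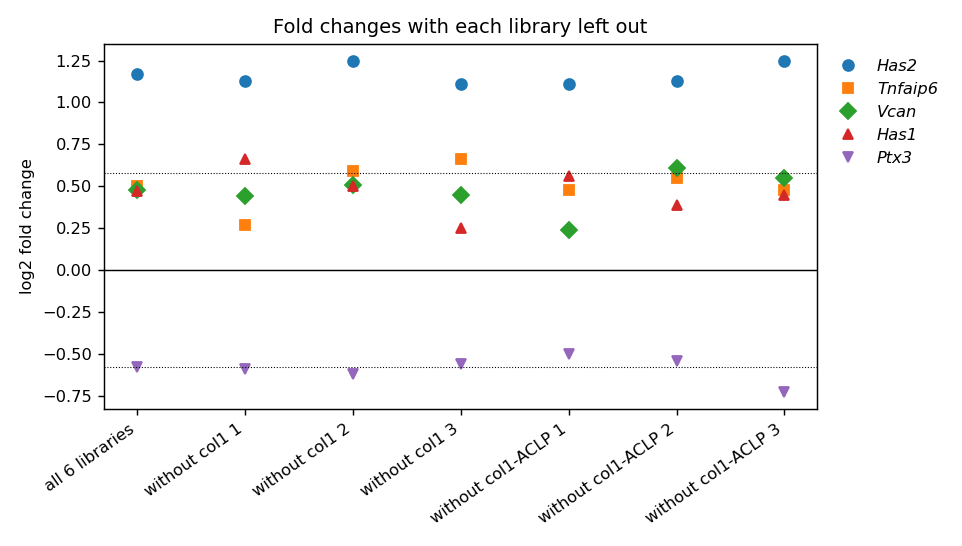
Log2 fold change of col1-ACLP against col1 from edgeR for 5 of the genes with all 6 libraries and with each library left out; dotted lines mark ±0.58. Has2 stays between 1.11 and 1.25, Ptx3 between -0.73 and -0.50, and Vcan, Tnfaip6 and Has1 between 0.24 and 0.66.

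The 5 genes with an unadjusted p under 0.05 differed in how far they rested on 1 library. Has2 was called without any single library, at log2 fold changes of 1.11 to 1.25. Vcan ranged from 0.24 to 0.61, Tnfaip6 from 0.27 to 0.66, Has1 from 0.25 to 0.66 and Ptx3 from -0.73 to -0.50. The direction of these 5 genes was the same in each of the 6 fits with a library left out.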

How the data were processed

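PolyA-selected RNA was sequenced as paired reads in 6 libraries. The authors deposited raw counts per gene as whole numbers, with the length of each gene, from reads mapped with HISAT2. The methods name GRCm39 and the submitters' notes mm10. Of the table's identifiers, 56017 were in GENCODE vM39 (GRCm39), 92.01% of them starting within 1000 bases, so positions were read as GRCm39. The counting program and its use of strand or of reads with several positions were not given in the sources used here.

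Columns were assigned from the names quoted in the labels, and 0 other per-sample columns were present. Genes were filtered with filterByExpr (minimum count 10, minimum total 15), scaled with TMM factors and tested in edgeR 4.0.16 (quasi-likelihood, two-sided, group as the only factor; R 4.3.3). Intervals are at 95% and include the fitted spread between libraries. DESeq2 1.42.0 (the study's tool), limma-voom 3.58.1, other scalings and filters, each library left out and a replicate block were alternatives. The test code was tested on simulated data. TPM used the table's gene length. Replicates differed by more than sampling noise (chi-square per degree of freedom 24.65 to 70.54).

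The members and lists were chosen with earlier results of these data known. Named were the 9 members, in each related list the called genes and the 2 with the smallest p, and the 3 genes nearest in pattern to the raised and to the lowered member of smallest p. Of the related genes, 1 that the rule names is not reported here. Adamts5, Has2os, Col1a1, Col3a1, Ly6a, Cd34, Pi16, Upk3b, Wt1, Lrrn4, Upk1b, Tpsb2, Mcpt4, Cma1, Kit and Fcer1a were named after their values were seen.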

Additional observations from a re-analysis of the deposited data

How the results depend on the processing

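Of the 9 genes, 7 kept their side of the thresholds in all 14 alternatives, Has2 at log2 fold changes of 1.11 to 1.25. DESeq2 gave no adjusted p for Has3 and Hyal1, which were counted there as not called. With a library left out, Vcan ranged from 0.24 to 0.61 and Ptx3 from -0.73 to -0.50; members raised numbered 1 to 2 and lowered 0 to 1, and related genes raised 1 to 2. The 2 related genes raised became 1 with library totals only and 1 with the replicate block, both by the loss of Csgalnact1. The 1 lowered became 2 with DESeq2 (Lyve1) and 3 without the low-count filter (Lyve1 and Cemip); the cause was not tested. Of 245 genes called, the count was 389 without the filter, 157 with col1 1 left out, 163 for col1 3, 151 for col1-ACLP 1 and 148 for col1-ACLP 3. Same-numbered libraries did not deviate together (r of -0.029 to -0.01), so the numbers were not taken as pairs; with the replicate block 194 genes were called, with Has2 at 1.17 and Ptx3 at -0.60, and it changed no call among the 9 genes. Counts of 26 to 65 limit Has3, and 30 to 59 limit Hyal1.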
